A study of Mus musculus with 12 samples.

Results

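The genes described are 10 genes of calcium sensing, buffering and transport that vitamin D is known to regulate in gut or kidney, measured here in the mouse pituitary. They are Casr, Trpv5, Trpv6, Calb1, Calb2, S100g, Atp2b1, Atp2b2, Atp2b4 and Slc8a1. They were found by the gene name of each non-control probe, which gave 18 probes of 10 genes among 39429 probes of 30119 gene names. RNA came from the hypophyses of 12 female C57BL/6J mice aged 2 months, with 4 mice in each of 3 diet groups. Control mice ate a normal diet. Early life mice had a VD-deficient diet during early life alone, and peripubertal mice had it in the peripubertal stage alone. The labels name no transgene or drug in any group, and they call the mice of a group biological replicates. The question is how a lack of dietary vitamin D in each window alters pituitary transcripts of the adult.

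Vitamin D acts through its nuclear receptor, Vdr, which pairs with a retinoid X receptor on DNA. In the lining of the gut and kidney tubule, calcium enters through Trpv6 and Trpv5, is carried across the cell bound to calbindins, and leaves through plasma membrane pumps of the Atp2b family and the sodium-calcium exchanger Slc8a1. Casr, the receptor for extracellular calcium, sets parathyroid hormone release and is also found in pituitary cells. In hormone-secreting pituitary cells, calcium entry triggers release of stored hormone, and pumps and buffers end the signal.

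The 6 arrays were Agilent 2-colour arrays that each held 2 mice of 1 group, odd-numbered mice in Cy3 and even-numbered mice in Cy5. The control arrays shared a slide and a scan, and the 4 arrays of the deficient groups shared another, so diet and slide cannot be told apart against control. Early life and peripubertal mice can be compared within 1 slide. Spots well above background, a mark set by the scanner software, made up 50.6% to 59.7% in early life samples, against 61.0% to 66.3% in controls and 57.9% to 67.2% in peripubertal samples. All 8 pituitary markers were kept for testing, and Gh lay between 17.53 and 18.75 log2 units in the 10 samples with a value. Of 9 ovary markers, 7 were not kept. With 6 arrays in all, precision is set by their number.

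The deposited files contradict each other on the identity of both deficient groups. In the authors' deposited table each column labelled early life equals a channel scanned as peripubertal, and the reverse, for 100% of values within 1e-06 log2 units. The 4 control columns of that table match no scanned channel. Group names below follow the scanner files. Under the table's labels every early life value belongs to peripubertal mice and every peripubertal value to early life mice, which turns the sign of the comparison between them.

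No calcium-handling probe passed the test in any comparison. Of the 18 probes, 12 probes of 7 genes cleared background in 4 or more samples and were tested, and 8 of these, from 5 genes, were well above background in all 12. The test was limma's moderated test with Benjamini-Hochberg adjustment over all tested probes at 0.05. For early life against control it called 0 of the 12 probes and 0.0798% of all probes, 19 of 23805. For peripubertal against control it called 0 of 12 and 0.0207% of all probes, and for early life against peripubertal 0 of 12 and 0.204%. Without early life replicate 3 the calls over all probes between early life and peripubertal mice numbered 1025, and the 12 probes still gave 0. At an unadjusted p under 0.05 by limma, early life mice differed from control on 3 of 12 probes and 16.5% of all probes. Peripubertal mice differed from control at that level on 0 of 12 and 4.76%, and both deficient groups from each other on 1 of 12 and 19.2%. A group was separated from the other, with no overlap of its 4 samples, for 1 of 12 probes in early life against control, where 12.5% of all probes with 12 values were, and for 1 of 12 between both deficient groups, where 17.3% were. For peripubertal against control the count was 0 of 12, against 7.98%. The median difference of the 12 probes from control was -0.08 log2 units in early life and -0.06 in peripubertal mice, and it was 0.03 between both deficient groups, while that of all probes was 0.02 each time.

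**Figure D1:**
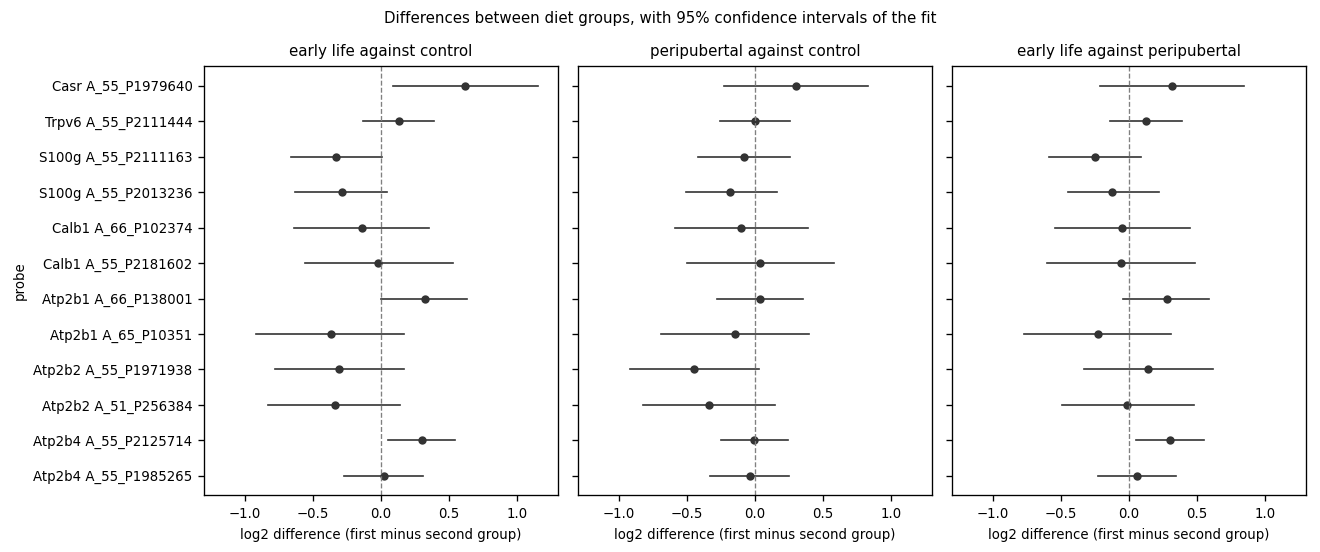
Log2 differences between diet groups for the 12 tested probes (horizontal axis, first minus second group; points, fitted differences; bars, 95% confidence intervals). Intervals for Casr, Atp2b1 A_66_P138001 and Atp2b4 A_55_P2125714 lie at or above 0 in early life against control, and the points of Atp2b2, with intervals that cross 0, lie at -0.31 to -0.45 in the comparisons with control. None passed after adjustment.

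Casr, the G protein-coupled receptor that senses extracellular calcium, showed the largest difference in size among the 12 probes in early life mice. Its only probe lies at chr16:36493783-36493842 of mm9, on the minus strand, at position 4473 of its transcript. The first 30 of its 60 bases are shown because the result rests on this probe alone.
Casr A_55_P1979640: agaaactgcttctgttgtaatagtccatgg
The log2 intensity was 7.72, 8.09, 7.97 and 7.97 in control replicates 1 to 4. It was 9.13, 8.58, 8.03 and 8.48 in early life replicates 1 to 4. It was 8.06, 8.39, 8.34 and 8.16 in peripubertal replicates 1 to 4. Early life replicate 1 was the brightest of the 12 samples, and early life replicate 3 lay below the highest control, so these groups overlapped. The means were 7.94 ± 0.16 in control, 8.55 ± 0.45 in early life and 8.24 ± 0.15 in peripubertal samples (SD, n = 4). The early life mean exceeded the control mean by 0.62 log2 units (SE 0.24, 95% interval 0.09 to 1.15), a fold of 1.54, which did not pass (limma, adjusted p = 0.251). Without early life replicate 1 the difference was 0.41, and over all alternative settings it ran from 0.41 to 0.93 with adjusted p-values from 0.077 to 0.52. Peripubertal mice differed from control by 0.30 (SE 0.24, limma adjusted p = 0.999) and early life from peripubertal mice by 0.32 (SE 0.24, limma adjusted p = 0.474). The 9 dim spots around the probe deviated by -0.07 to 0.11 in the 12 samples. In this bulk tissue, a change in the number of cells of a type and a change in RNA per cell cannot be told apart.

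**Figure D2:**
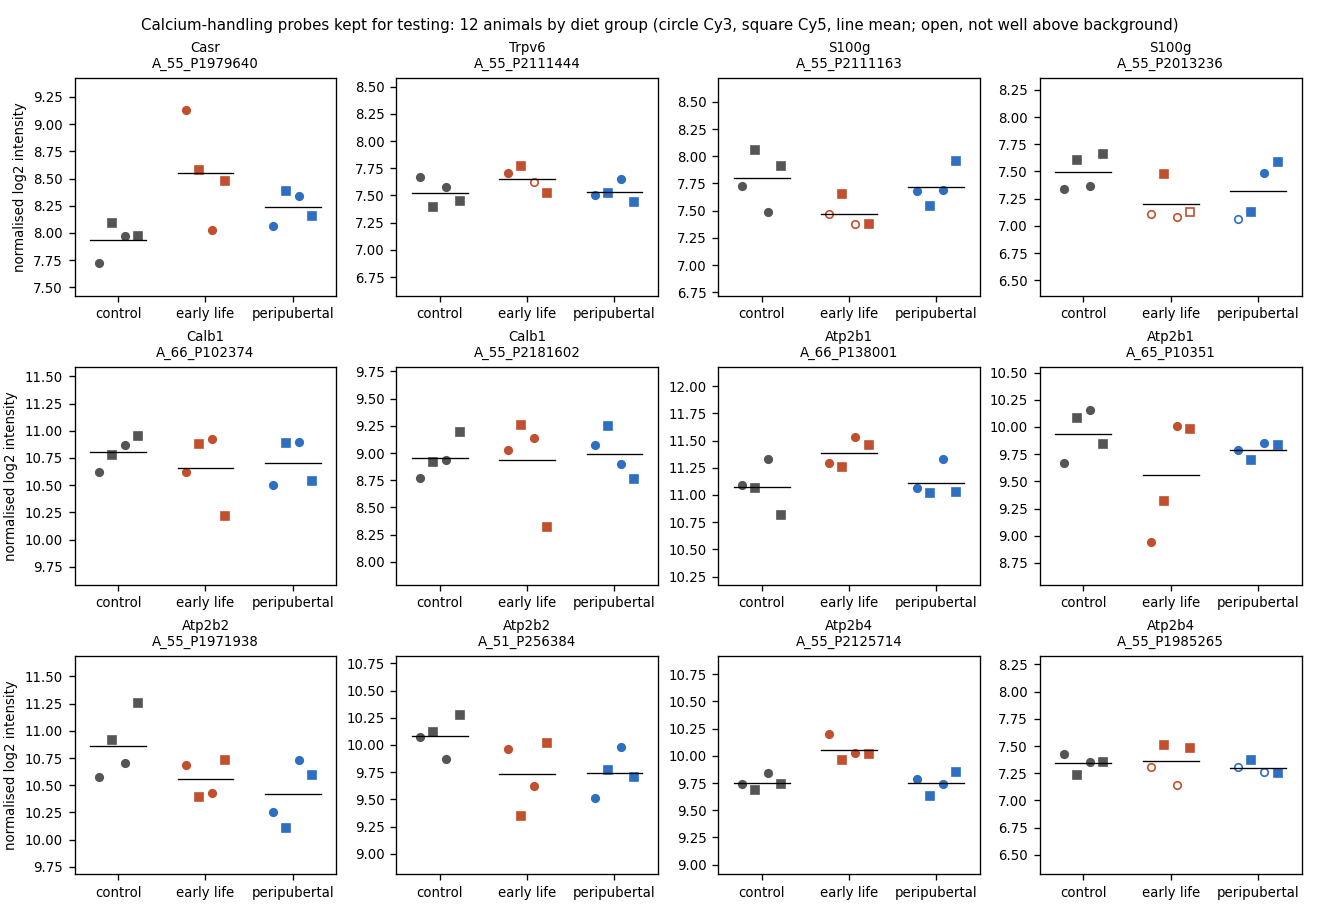
Normalised log2 intensity (vertical axis, 2 units in each panel) of the 12 tested probes in 12 mice by diet group (points, mice; circles, Cy3; squares, Cy5; lines, group means; open symbols, not well above background). Casr is brightest in early life replicate 1 at 9.13, and only Atp2b4 A_55_P2125714 has all 4 early life mice above every other mouse.

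Levels of other cell types' markers also varied between the groups, but no tested marker gene passed in any group comparison. The part of these cell types in the values above was not tested. For each list, a score averaged how far its kept genes lay from their own 12-sample means, in log2 units. The neuron score, from 7 of 7 genes, lay between -0.25 and 0.03 in control samples, between -0.08 and 0.75 in early life samples and between -0.38 and -0.11 in peripubertal samples. The glia and myelin score, from 6 of 6 genes, ran from -0.24 to 0.14, from -0.30 to 0.78 and from -0.23 to 0.06 in the same order. The red cell score, from 6 of 8 genes, ran from -1.03 to 0.98, from -1.27 to -0.08 and from 0.25 to 1.77. The posterior lobe and pituicyte score, from 6 of 6 genes, ran from -0.33 to -0.02, from -0.20 to 0.49 and from -0.28 to 0.50. The smooth muscle and pericyte score, from 3 of 5 genes, ran from -0.51 to 0.32, from -0.09 to 0.95 and from -0.58 to -0.10. The ovary score, from 2 of 9 genes, Inha and Gdf9, lay between -0.35 and -0.05 in control, between -0.01 and 0.23 in early life and between -0.03 and 0.31 in peripubertal samples. The control samples thus narrowly missed overlap with either deficient group, as 12.5% and 7.98% of all probes with 12 values also did not overlap. In early life mice without an Inha value the score rests on Gdf9 alone, which was well above background in 6 of 12 samples. Gdf9 differed from control by 0.11 in early life and 0.04 in peripubertal mice (SE 0.12 each). Inha, an inhibin subunit that the pituitary also makes, lay 0.60 above control in both deficient groups (SE 0.18 and 0.15; limma, adjusted p = 0.191 and 0.562), with values from 2 early life mice. The pituitary hormone score, from 8 of 8 genes, overlapped in all 3 groups, from -0.38 to 0.32.

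Of the epithelial entry channels, Trpv6 was detected and Trpv5 was not. Trpv6, the main calcium channel of the gut's absorptive cells, was well above background in 11 of 12 samples. The stretch of its probe around the letters AATAAA is printed, with those letters in capitals. They are the usual signal near which a transcript is cut and polyadenylated. The letters alone do not place the probe at the end of the message. The probe is at chr6:41570624-41570683 of mm9, minus strand.
Trpv6 A_55_P2111444: ttgccaccttccAATAAAatcatttcctga
Its values were 7.67, 7.39, 7.58 and 7.45 in control, 7.71, 7.77, 7.62 and 7.52 in early life and 7.50, 7.52, 7.65 and 7.44 in peripubertal replicates 1 to 4. All 12 samples lay between 7.39 and 7.77 and the groups overlapped. Early life mice differed from control by 0.13 log2 units (SE 0.12, limma adjusted p = 0.604), with a 95% interval of -0.13 to 0.39. Peripubertal mice differed from control by 0.00, with an interval of -0.26 to 0.26. Trpv5, the kidney tubule's channel, read at chr6:41602985-41603044, was well above background in 0 of 12 samples, with values from 6.21 to 6.83, so no level or fold is given.

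Among the buffers, Calb1 was detected in every sample, S100g lay near the detection limit and Calb2 was not detected. Calb1 is the large calbindin of kidney tubule and neurons. Both of its probes, at chr4:15833582-15833641 and chr4:15835078-15835137 of mm9 on the plus strand, were well above background in all 12 samples. The first is shown around AATAAA, in capitals, and the second by its first 30 bases, since the pair reads different stretches of the message.
Calb1 A_55_P2181602: tttaaagattagccaacAATAAAtcctaga
Calb1 A_66_P102374: gaagtagcagttcctgatgaggaataaggg
For A_66_P102374 the values were 10.62, 10.78, 10.87 and 10.95 in control, 10.62, 10.88, 10.92 and 10.22 in early life and 10.50, 10.89, 10.90 and 10.54 in peripubertal replicates 1 to 4. For A_55_P2181602 they were 8.77, 8.92, 8.94 and 9.19 in control, 9.03, 9.26, 9.14 and 8.32 in early life and 9.07, 9.25, 8.90 and 8.76 in peripubertal replicates 1 to 4. Early life replicate 4 was the lowest sample on both probes, and the groups overlapped on both. The probes followed each other over the 12 samples with Pearson's r = 0.79 and Spearman's rho = 0.62, and r = 0.71 without the 2 samples farthest from the median. The early life difference from control was -0.14 (SE 0.22, 95% interval -0.64 to 0.35) on the first of these and -0.02 (SE 0.25, interval -0.56 to 0.53) on the second (limma, adjusted p = 0.775 and 0.979). The peripubertal difference from control was -0.10 and 0.04 on the same probes.

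S100g, the small calbindin of the gut's absorptive cells, is a classical vitamin D target there. Its probes lie at chrX:159399938-159399997 and chrX:159399924-159399983 of mm9 on the minus strand and share 46 of their 60 bases, so they are close to a repeat measurement of 1 site. Their first 30 bases are shown with the shared bases in capitals, the second probe starting 14 bases further along.
S100g A_55_P2111163: gctgtgcgattatgATACATACTGTTAATA
S100g A_55_P2013236: ATACATACTGTTAATAAAGCAAGTTCGGAG
On A_55_P2111163 the control values were 7.73, 8.06, 7.49 and 7.91, the early life values 7.47, 7.65, 7.38 and 7.38, and the peripubertal values 7.68, 7.54, 7.69 and 7.96. On A_55_P2013236 they were 7.34, 7.61, 7.37 and 7.66 in control, 7.11, 7.48, 7.08 and 7.13 in early life and 7.06, 7.13, 7.49 and 7.59 in peripubertal replicates 1 to 4. The lowest value was shared by 2 early life mice on the first probe and came from a peripubertal mouse on the second, and the early life and control groups overlapped on both. The probes followed each other with r = 0.81 and rho = 0.74 over the 12 samples, and r = 0.73 without the 2 farthest from the median. Early life mice differed from control by -0.33 (SE 0.15, 95% interval -0.66 to 0.01, limma adjusted p = 0.312) and -0.29 (SE 0.15, interval -0.63 to 0.04, limma adjusted p = 0.348). On the software's processed signals these differences were -0.68 and -0.86, and over all alternatives the adjusted p-values ran from 0.198 to 0.6 and from 0.284 to 0.612. Only 2 of 4 and 1 of 4 early life samples were well above background on these probes, against 4 of 4 controls on each, so the early life means lie near the detection limit. Peripubertal mice differed from control by -0.08 and -0.18 (SE 0.15 each), the second being -0.34 on processed signals. The dye also moved with S100g: Cy5 samples exceeded Cy3 samples by 0.18 (SE 0.09, limma adjusted p = 0.522) and 0.19 (SE 0.09, limma adjusted p = 0.482), and each diet group held 2 samples of each dye. The third buffer, Calb2, is calretinin, a calbindin relative of neurons, read at chr8:112678555-112678614. It was well above background in 0 of 12 samples, with values from 6.36 to 6.64.

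All 3 plasma membrane calcium pumps were detected in every sample on at least 1 probe, and their probes did not all move together. Atp2b1 is the broadly expressed pump that empties calcium at the blood side of gut and kidney cells. Its probes are far apart on the message, at positions 562 and 4127 of the transcript, at chr10:98431670-98431729 and chr10:98485775-98485834 of mm9 on the plus strand. Their first 30 bases are shown because they gave opposite differences.
Atp2b1 A_66_P138001: cagatccacggatgcattacggaaaataca
Atp2b1 A_65_P10351: actagctgcattgtaaagaaacaaatcgaa
On A_66_P138001, nearer the start of the message, the values were 11.09, 11.06, 11.33 and 10.82 in control, 11.29, 11.26, 11.53 and 11.46 in early life and 11.06, 11.02, 11.33 and 11.03 in peripubertal replicates 1 to 4. On A_65_P10351, nearer its end, they were 9.67, 10.08, 10.16 and 9.84 in control, 8.94, 9.32, 10.01 and 9.98 in early life and 9.79, 9.70, 9.85 and 9.83 in peripubertal replicates 1 to 4. Early life replicates 1 and 2, which shared an array, were the 2 lowest samples on the second probe, and early life replicates 3 and 4 the 2 highest on the first. The early life difference from control was 0.32 on the first (SE 0.14, fold 1.24, limma adjusted p = 0.302) and -0.37 on the second (SE 0.25, fold 0.771, limma adjusted p = 0.454). Without early life replicate 1 the second was -0.19, and over all alternatives the first ran from 0.23 to 0.54 and the second from -0.50 to -0.19. Peripubertal mice differed from control by 0.04 and -0.15. Over the 12 samples the probes showed r = 0.04 and rho = 0.29, and r = -0.05 without the 2 samples farthest from the median. The 7 dim spots around A_65_P10351 deviated by 0.29 and 0.17 in early life replicates 3 and 4 and by -0.12 to 0.06 in the other samples. The sign for Atp2b1 in early life mice depends on the probe.

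Atp2b2, a fast pump known from neurons and sensory hair cells, lay below control in both deficient groups on both probes without passing the test. The probes are at chr6:113695839-113695898 and chr6:113698347-113698406 of mm9, minus strand, at positions 6857 and 4349 of the transcript. Their first 30 bases are given because this pair, unlike that of Atp2b1, followed each other.
Atp2b2 A_55_P1971938: ctctcacactcttccatacacacacacacc
Atp2b2 A_51_P256384: gggaaccagacctttctctggcagccatgc
For A_55_P1971938 the values were 10.58, 10.92, 10.70 and 11.26 in control, 10.69, 10.39, 10.43 and 10.73 in early life and 10.25, 10.11, 10.73 and 10.59 in peripubertal replicates 1 to 4. For A_51_P256384 they were 10.07, 10.12, 9.87 and 10.28 in control, 9.96, 9.35, 9.62 and 10.02 in early life and 9.51, 9.77, 9.98 and 9.71 in peripubertal replicates 1 to 4. Control replicate 4 was the brightest sample on both probes, and every pair of groups overlapped. Early life mice differed from control by -0.31 and -0.34 (SE 0.22 each; limma, adjusted p = 0.489 and 0.442). The first was -0.17 without control replicate 4 and the second -0.17 without early life replicate 2, and median centring gave -0.09 and -0.17. Peripubertal mice differed from control by -0.45 and -0.34 (SE 0.22 each; limma, adjusted p = 0.999 on both), and by -0.22 and -0.14 with median centring. Early life and peripubertal mice, on 1 slide, differed by 0.14 (95% interval -0.33 to 0.62) and -0.01 (interval -0.49 to 0.48). Over the 12 samples the probes showed r = 0.79 and rho = 0.80, and r = 0.86 without the 2 samples farthest from the median.

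Atp2b4 is a pump that also holds signalling partners at the membrane, and it held the only probe on which every early life mouse exceeded every other mouse. Of its 3 probes on the minus strand of chromosome 1, A_55_P2125714 (chr1:135603249-135603308) and A_55_P1985268 (chr1:135611676-135611735) are listed for 2 RefSeq transcripts, and A_55_P1985265 (chr1:135608273-135608332) for 1. The first 30 bases of A_55_P2125714 and A_55_P1985265 are shown, since these tested probes disagreed.
Atp2b4 A_55_P2125714: attctgacagccctctgccaagcctggaga
Atp2b4 A_55_P1985265: accttgatgtaaaactggttcctagctcct
On A_55_P2125714 the values were 9.74, 9.69, 9.84 and 9.74 in control, 10.20, 9.96, 10.03 and 10.02 in early life and 9.79, 9.63, 9.74 and 9.85 in peripubertal replicates 1 to 4. The lowest early life value, 9.96, lay above the highest of the other 8, 9.85. Of all probes with 12 values, 3.04% had every early life sample above every other sample. The means were 9.76 ± 0.06 in control, 10.05 ± 0.10 in early life and 9.75 ± 0.09 in peripubertal samples (SD, n = 4). Early life mice differed from control by 0.30 (SE 0.11, fold 1.23, limma adjusted p = 0.247) and from peripubertal mice by 0.30 (SE 0.11, limma adjusted p = 0.195). The 5 dim spots around this probe deviated by 0.46 and 0.32 log2 units in early life replicates 3 and 4 and by -0.17 to 0.03 in the other 10 samples, and their part in the difference was not tested. Over all alternatives the difference from control ran from 0.19, on the software's processed signals, to 0.47. On A_55_P1985265, well above background in 8 of 12 samples, values ran from 7.14 to 7.51 over all mice. Its early life difference from control was 0.02, with a 95% interval of -0.27 to 0.31. These 2 probes showed r = 0.03 and rho = 0.03 over the 12 samples, and r = 0.58 without the 2 farthest from the median, so the value rests on those samples. A_55_P1985268 was well above background in 0 of 12 samples.

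Slc8a1, the sodium-calcium exchanger best known from heart muscle, was near the detection limit on all 3 of its probes, at chr17:81844837-81844896, chr17:81844210-81844269 and chr17:81787868-81787927 of mm9, minus strand. A_55_P2080758 was well above background in 3 of 4 control samples and in no sample of the other groups. Its values were 7.35, 7.59, 7.05 and 7.00 in control, 7.01 to 7.17 in early life and 6.89 to 7.01 in peripubertal samples. The means were 7.25 in control, 7.08 in early life and 6.94 in peripubertal samples, and no fold is given. The lowest signal of any probe well above background was 7.43 and 7.76 in early life replicates 1 and 3. It was 5.95 in peripubertal replicate 1, where Atp2b4 A_55_P1985265 at 7.31 was not well above background. That lowest signal is therefore no sure limit of detection. Dim spots around A_55_P2080758 deviated by 0.32 in control replicate 2, its brightest sample. The other probes were well above background in 3 and 1 of 12 samples. On A_52_P313285 the means were 7.00 in control, 7.16 in early life and 6.89 in peripubertal samples, so early life lay highest there. On A_55_P2292435 they were 6.70, 6.61 and 6.48 in the same order. None of the 3 was tested.

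Detection itself differed by group. Over the 18 probes, 54 of 72 values were well above background in control, 40 of 72 in early life and 46 of 72 in peripubertal samples. In the share of all spots given above, early life samples lay below every control sample and overlapped the peripubertal samples. Between dyes, limma called 0 of the 12 probes and 0.0407% of all probes, and 1 of 12 had an unadjusted p under 0.05, against 10.3% of all probes.

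**Figure D3:**
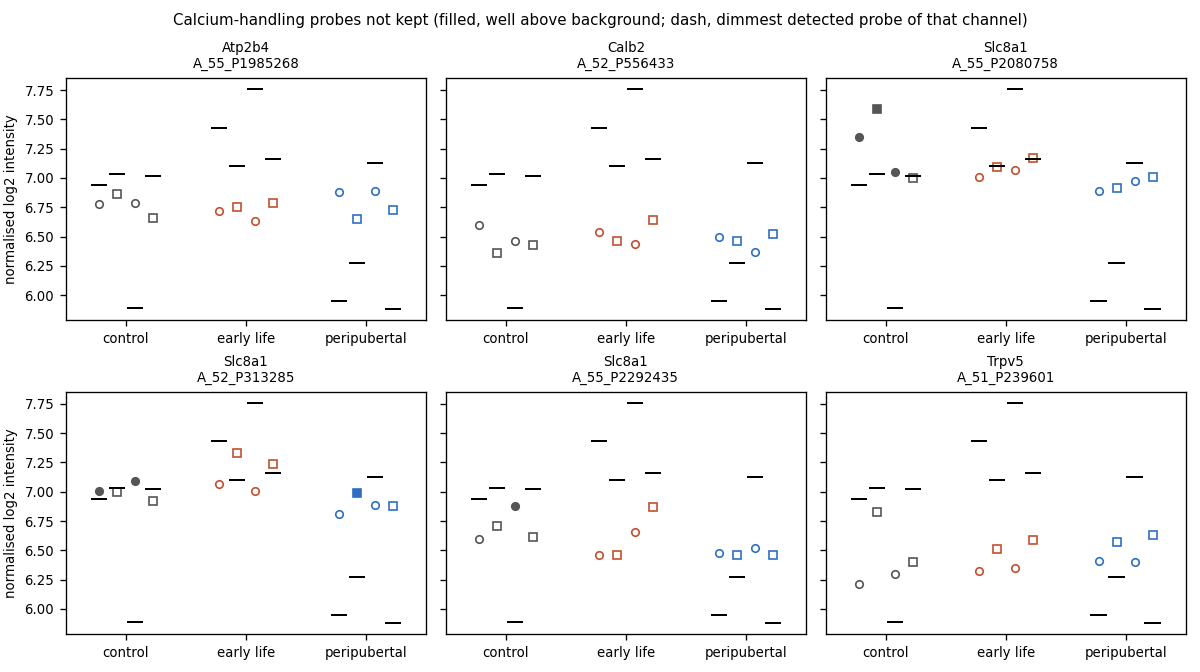
Normalised log2 intensity (vertical axis) of the 6 probes that were not tested, by mouse and diet group (circles, Cy3; squares, Cy5; filled, well above background; open, not), with the lowest signal of any probe well above background in the same sample as a dash. Calb2, Trpv5 and Atp2b4 A_55_P1985268 have no filled symbol, and the dashes of early life replicates 1 and 3, at 7.43 and 7.76, lie above all of their points.

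The other genes of calcium handling were read from 9 lists of 130 genes, each by its brightest kept probe, and 108 genes were kept. In early life against control 0 of 105 tested genes passed, with 14 above and 8 below control at an unadjusted p under 0.05 by limma. In peripubertal against control 0 of 105 passed, with 1 above and 3 below at that level. In early life against peripubertal 1 of 104 passed and was lower, with 18 above and 11 below at that level. The share of all probes at that level was 16.5%, 4.76% and 19.2%. The median difference of the listed genes was 0.10, 0.05 and 0.07 log2 units, against 0.02 for all probes.

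Hpcal4, a neuronal calcium sensor of the visinin family, was the gene that passed. Its values were 9.69, 10.18, 9.49 and 9.87 in control, 9.06, 9.13, 8.98 and 8.99 in early life and 10.25, 10.28, 9.71 and 10.10 in peripubertal replicates 1 to 4. All 4 early life mice lay below the other 8. Of all probes with 12 values, early life mice did not overlap control on 12.5% and peripubertal mice on 17.3%, in either direction. The share with early life below both was not counted. Early life mice differed from peripubertal mice by -1.04 (SE 0.17, limma adjusted p = 0.0419) and from control by -0.77 (SE 0.17, limma adjusted p = 0.120). The call between both deficient groups held under 5 of 22 alternative settings, with adjusted p-values from 0.0232 to 0.321, and the difference turned to 1.09 under the value table's labels. With 1 mouse left out it ran from -1.13 to -0.95 and passed in 3 of 12 fits, those without replicate 3 of any group; without any of the other 9 mice it did not pass. Of its list of 25 cytosolic EF-hand proteins, 20 were kept and no other passed.

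In the remaining 8 lists no gene passed, and 1 or 2 genes of smallest p are given for each. Among 18 voltage-gated channel subunits, the T-type subunit Cacna1g had 11.29, 11.08, 9.92 and 11.06 in control, 8.62, 8.38, 9.87 and 9.27 in early life and 11.19, 11.08, 11.08 and 11.49 in peripubertal replicates 1 to 4. Its early life mice lay below all others, by -2.17 (SE 0.41, limma adjusted p = 0.0560) against peripubertal mice and -1.80 (SE 0.41, limma adjusted p = 0.133) against control. The share of all probes with that pattern was not counted. Cacna1f, an L-type subunit, differed between early life and peripubertal mice by -0.82 (SE 0.21, limma adjusted p = 0.116).

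Among 8 pumps and regulators of the endoplasmic reticulum and Golgi, Atp2a2, the widespread reticulum pump, differed between early life and control mice by 0.89 (SE 0.19, limma adjusted p = 0.120). Atp2c1, the Golgi pump, differed by 0.66 (SE 0.20, limma adjusted p = 0.182). On both, all 4 early life mice lay above all controls, and 12.5% of all probes with 12 values separated these groups in either direction. Among 8 further extrusion genes, the exchanger Slc8a3 differed between early life and peripubertal mice by 0.74 (SE 0.26) and Slc24a2 by 0.42 (SE 0.25), from the 2 early life samples with a value, the other array having been marked as an outlier at these spots. Among 9 release channels, Ryr2 differed between early life and control mice by 0.66 (SE 0.21), and the lysosomal channel Mcoln1 between early life and peripubertal mice by -0.42 (SE 0.21). Among 15 store-operated and TRP entry genes, the osmosensing channel Trpv4 differed between early life and control mice by 0.71 (SE 0.20), and Trpc4 between early life and peripubertal mice by -0.52 (SE 0.16).

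Among 14 organelle buffers the median difference of tested genes was -0.42 for early life against control, and 3 of 11 lay above control. Over all lists 63 of 105 genes lay above control. Rcn2, a reticulum EF-hand protein, differed between early life and control mice by 0.68 (SE 0.16) and the chaperone Hspa5 between early life and peripubertal mice by -0.62 (SE 0.16). Among 8 mitochondrial genes, the exchanger Slc8b1 differed between early life and control mice by -0.40 (SE 0.18). Among 25 genes of the calcium and phosphate hormone axis 18 were tested, and 16 of them lay higher in early life than in peripubertal mice. Their median difference was 0.24, against 0.02 for all probes. Over all lists 61 of 104 genes lay higher in that comparison, among them 2 of 10 organelle buffers and 2 of 7 mitochondrial genes. Vdr had 8.05, 8.18, 9.13 and 8.36 in control, 10.09, 9.42, 9.41 and 9.36 in early life and 8.83, 8.70, 8.64 and 8.60 in peripubertal replicates 1 to 4. Every early life mouse lay above all others for Vdr, by 1.14 (SE 0.25, limma adjusted p = 0.128) against control and 0.88 (SE 0.25, limma adjusted p = 0.132) against peripubertal mice. That pattern was seen in 3.04% of all probes with 12 values. Cyp27b1, which makes active vitamin D, differed between peripubertal and control mice by -0.41 (SE 0.13, limma adjusted p = 0.846).

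For the 5 genes detected in all 12 samples, the genes of most similar pattern were sought among 9025 genes that were also detected in all 12, by Pearson's r over the 12 samples after each dye's mean had been removed. Casr was most like Elmod3, Efcab12 and Ttc28, each with r = 0.96, and 3.91% of the genes had an r over 0.8. Atp2b4 was most like Gnaz with r = 0.97 and Slc25a25 with r = 0.95, and 3.01% of the genes had an r over 0.8. Atp2b1, on A_66_P138001, was most like Ccsap with r = 0.96 and Grhl1 and Ndst1 with r = 0.93. Atp2b2 was most like Cacng6 and Dusp7 with r = 0.88 and Fmn2 with r = 0.85. Calb1 was most like Cdk5rap1 and Pak7 with r = 0.85 and Rad1 with r = 0.83. For Atp2b2 and Calb1, 0.111% and 0.0332% of the genes had an r over 0.8. The points share arrays, slides and normalisation, and these values are descriptions.

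RefSeq promoter windows of build GRCm38.p6 were found for 8 of the 10 genes, as 11 windows. The 250 bases before each start were searched on both strands for 4 forms of the 6-base half-site that the vitamin D receptor pair is known to recognise. The letters were AGGTCA in the first form and AGTTCA in the second. They were GGGTCA in the third form and GGTTCA in the last. Of the 11 windows 4 held at least 1, in S100g, Trpv6 and Atp2b2, against 38.6% of all 32851 windows. A direct repeat of these letters with 3 bases between, the classical element, was in 0 of the 11 windows and in 0.0396% of all. The stretches of S100g and Trpv6, both gut targets of the hormone, are printed 5′ to 3′ on the gene's minus strand. The match is in capitals and reads as the half-site or as its reverse complement.
S100g chrX:162964802-162964831: gggctgtgcgcaAGGTCAaaattctatact
S100g chrX:162964731-162964760: cccttgggactcTGAACCattaagcaattg
S100g chrX:162964689-162964718: tctattgaagctTGACCTtaattgagagtc
Trpv6 chr6:41636579-41636608: ctgcaatgagccTGACCTgtcccagccttc
Trpv6 chr6:41636553-41636582: cttcctagaaaaAGGTCActgggtatccca
The windows of Casr and Atp2b4 held none of these letters. A match describes the sequence alone, and these data do not measure binding.

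The control columns of the authors' deposited table were low in pituitary genes and high in ovary genes. There the growth hormone gene Gh lay at -2.21 and -2.12 log2 units, each column's median being 0, in the 2 columns with a value, and at 9.47 to 10.31 in the 8 columns labelled deficient. Cyp11a1, a steroid-making enzyme of the ovary and adrenal, lay at 7.86 to 9.58 in the control columns and at -3.05 to -1.41 in the 5 deficient columns with a value. For that reason these columns served no diet comparison. Among the calcium genes, Calb1 A_66_P102374 had a median of -2.03 in the control columns, the highest being -0.93, and of 2.76 in the deficient ones. Casr lay at -2.28 and -2.08 in 2 control columns and at -0.77 to 1.42 in the deficient ones. Both Atp2b2 probes and Atp2b4 A_55_P2125714 were also lower in every control column than in any deficient one. S100g went the other way, with medians of 0.47 against -0.94 on A_55_P2111163 and 0.43 against -1.45 on A_55_P2013236, and ranges that overlapped on both. These are the authors' values, and no test was made on them.

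**Figure D4:**
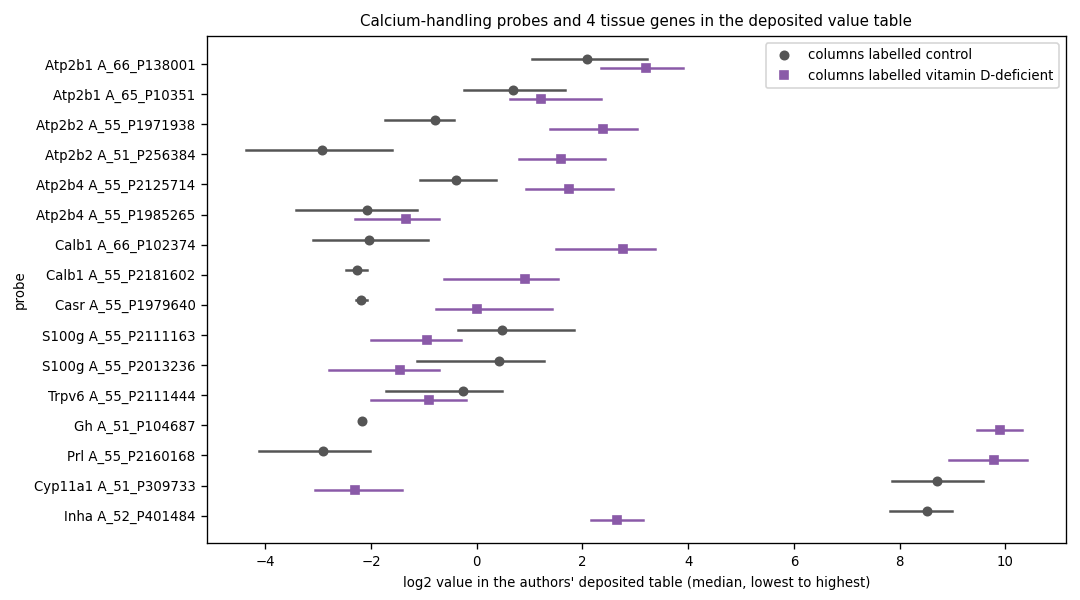
Log2 values in the authors' deposited table (horizontal axis; symbols, medians; bars, lowest to highest column) for the 12 tested probes and 4 tissue genes, in the 4 columns labelled control (circles) and the 8 labelled vitamin D-deficient (squares). In the control columns the medians are -2.17 for Gh, -2.90 for Prl, 8.71 for Cyp11a1 and 8.52 for Inha; Calb1, Casr and Atp2b2 are lower there, and S100g is higher by its median.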

How the data were processed

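The deposited scanner files hold raw intensity per spot with local background and quality marks. Per the file headers they were written by Feature Extraction 11.0.1.1. Probe positions are on mm9, per the file headers. The authors' deposited value table gives log2 values, with a step not given in the sources used here. Normexp (offset 50) corrected the background, loess the dyes within arrays, and Aquantile scaling the arrays. Single-channel log2 values followed. Outlier spots were removed for both mice of an array, no value of the 18 calcium-handling probes being lost, and repeated spots were averaged. Probes well above background in at least 4 of 12 samples were kept, 24605 in all. limma 3.58.1 in R 4.3.3 fitted diet group plus dye, and treated the array as a random block (correlation 0.342), with 8 residual degrees of freedom, a prior of 3.46 and two-sided tests adjusted by Benjamini-Hochberg over all probes of a comparison. The fit was tested on simulated data.

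The genes, lists and tests were chosen with earlier results of these data known. Named list genes are those past the threshold, or else the 2 of smallest p per list; some named genes are not reported here. The alternatives were other scaling, filters and probe choices, array means, a replicate block, fewer samples and the value table. Gene symbols and promoters are from RefSeq, and 16 of the 18 probes matched by accession. Same-numbered samples of different groups had correlations of -0.28 to 0.07 over 12 pairs after group and dye means were removed. They also share a dye, and removing dye means lowers the correlation between samples of the same dye. These values therefore cannot decide whether the numbers pair mice.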

Additional observations from a re-analysis of the deposited data

Results flagged for a closer look

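Among the 36 sets of 4 values, 12 probes in 3 groups, 2 held a value far from the other 3 by the 95% critical value of Dixon's gap ratio. Chance alone gives about 5% of such sets. Atp2b1 A_66_P138001 was 11.33 in peripubertal replicate 3, while the other peripubertal samples lay between 11.02 and 11.06. S100g A_55_P2013236 was 7.48 in early life replicate 2, while the other early life samples lay between 7.08 and 7.13 and were not well above background.

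The control columns of the deposited value table, which entered no comparison, held an S100g signal whose median lay above that of the other columns, with ranges that overlapped. The median of the 4 control columns was 0.47 on A_55_P2111163 and 0.43 on A_55_P2013236, against medians of -0.94 and -1.45 in the 8 columns labelled deficient. The difference was not tested.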

How the results depend on the processing

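No member probe passed in any comparison under any alternative that was run, the lowest adjusted p by limma being 0.077 between early life and control, 0.703 between peripubertal and control, 0.119 between both deficient groups and 0.117 between dyes. The calls over all probes moved more, and the cause was not tested. Between early life and control, with 19 as reported, they were 8 with median centring, 42 with processed signals, 0 with probes detected in all 12 samples and 4 with the 8 samples compared, and 6 to 409 when 1 replicate was left out, the highest without early life replicate 3 (346 without control replicate 3). Between peripubertal and control, with 5 as reported, they were 0 with quantile scaling, without a filter, with probes detected in all 12 samples and with array means, 1 with median centring, 3 with processed signals and 3 with the 8 samples, and 0 to 1 when 1 replicate was left out. Between both deficient groups, with 48 as reported, they were 22 with quantile scaling, 8 with median centring, 30 with processed signals, 0 with probes detected in all 12 samples, 24 with 1 probe per gene, 82 with the 8 samples, 125 with the value table under its own labels, and 9 to 1025 when 1 replicate was left out (318 without control replicate 3). Between dyes, with 10 as reported, they were 3190 with median centring, which leaves the dye bias in place, 4 with processed signals, and 2 to 20 when 1 replicate was left out. The split of higher and lower calls also moved with scaling. In early life against control it was 11 and 8, then 18 and 24 with processed signals and 6 and 2 with median centring. Between both deficient groups it was 16 and 32, then 12 and 10 with quantile scaling, 19 and 11 with processed signals and 8 and 0 with median centring.

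With the replicate block, whose number also carries the dye, the calls were 12 between early life and control, 0 between peripubertal and control and 8 between both deficient groups. Of 12 samples, 0 correlated best with a sample of its own number. Same-numbered samples share a dye, whose mean was removed, so this count cannot decide whether the numbers pair mice. The block added no call among the calcium-handling probes.

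Signs changed for differences near 0. With processed signals Atp2b4 A_55_P1985265 was -0.15 in early life against control and -0.12 against peripubertal mice, Atp2b1 A_66_P138001 was -0.01 in peripubertal against control and Atp2b2 A_51_P256384 was 0.12 between both deficient groups. Median centring moved the median of all probes from 0.02 to 0.13 in early life against control, from 0.02 to 0.12 in peripubertal against control and from 0.01 to 0.18 between dyes. With it, and before that shift is taken off, early life against control gave Calb1 0.12 and 0.08 and Atp2b4 A_55_P1985265 -0.09, peripubertal against control gave Atp2b1 A_65_P10351 0.05, Atp2b4 A_55_P2125714 0.18, Trpv6 -0.08 and Calb1 A_66_P102374 0.13, and Cy5 against Cy3 gave Atp2b4 0.13 and -0.01, Calb1 0.11 and 0.23 and Atp2b1 A_66_P138001 0.11. With quantile scaling Trpv6 was -0.02 for peripubertal against control. Under the value table's labels, which exchange the deficient groups, early life against peripubertal gave Casr -0.48, Atp2b4 -0.28 and -0.33, Trpv6 -0.34, Atp2b1 -0.31 and 0.33, Atp2b2 A_55_P1971938 -0.17, Calb1 0.06 and 0.05, S100g A_55_P2111163 0.19 and Hpcal4 1.09. Leaving out 1 replicate turned some signs. For early life against control the ranges were -0.05 to 0.10 for Atp2b4 A_55_P1985265, -0.15 to 0.21 for Calb1 A_55_P2181602 and -0.28 to 0.03 for Calb1 A_66_P102374. For peripubertal against control they were -0.05 to 0.13 for Calb1 A_55_P2181602, -0.11 to 0.02 for Atp2b4 A_55_P1985265, -0.06 to 0.03 for Atp2b4 A_55_P2125714, -0.04 to 0.05 for Trpv6, -0.05 to 0.12 for Atp2b1 A_66_P138001 and -0.15 to 0.02 for S100g A_55_P2111163. For early life against peripubertal they were -0.13 to 0.17 for Atp2b2 A_51_P256384, -0.19 to 0.17 for Calb1 A_55_P2181602 and -0.18 to 0.13 for Calb1 A_66_P102374. For Cy5 against Cy3 they were -0.06 to 0.14 for Atp2b1 A_65_P10351, -0.03 to 0.15 for Atp2b2 A_51_P256384, -0.03 to 0.21 for Casr, -0.10 to 0.13 for Calb1 A_55_P2181602 and -0.09 to 0.09 for Calb1 A_66_P102374. Of 243, 243, 255 and 207 member values under alternatives in the 4 comparisons, 233, 223, 234 and 187 kept their sign. Hpcal4 was recomputed after its values were seen. Probes near background limit what S100g, Slc8a1 and Trpv6 can show.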
